A study of Mus musculus with 6 samples.

Results

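The mRNA content of the untreated mouse zygote is described here from 2 libraries of wild-type 1-cell embryos that were kept in vitro with DMSO, the solvent control, and that form 1 of 3 groups in a series of 6 libraries. The other groups, an inhibitor of serine metabolism without and with S-adenosylmethionine, were not used, and no comparison between groups was made. The labels call the libraries biological replicates and give neither the mouse strain, the hour of collection nor the number of embryos in a library. Total RNA was turned into cDNA with a SMART-Seq v4 kit, which primes on poly(A) tails, and made into Nextera XT libraries. Members were all 21785 records of the deposited gene table that the GENCODE M21 annotation types as protein-coding, of 36065 records in all. These genes held 94.3% of the summed signal in replicate 1 and 94.2% in replicate 2.

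A zygote begins with the mRNA that the oocyte stored while it grew, and its own genome is only beginning to be transcribed. Stored mRNA is kept quiet by RNA-binding proteins, enters translation when its tail is lengthened, and is then removed by deadenylation. The level of a transcript therefore does not separate oocyte mRNA from new transcripts, and poly(A)-primed cDNA under-represents mRNA with a short tail.

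Every value below is the deposited abundance signal, which resembles a level divided by transcript length. Comparisons between genes rest on that reading, and mRNA with a short tail may stand too low in them. The last scaling step of the signal is not given in the sources used here, and the columns summed to 984962 and 956209. Values are given for replicate 1 first and replicate 2 second (n = 2), and the spread between them is the only error available. Read depth is not given in the table used here. Low values of 2214 single-transcript genes longer than 1500 bases fell on steps, with 67.3% and 69.8% of them within 0.1 of a whole number. Evenly spread values would give 20%. The step was chosen to fit these same values, so the shares are no test of it, and smaller or larger steps were not searched. If 1 step is 1 read, a read was worth about 0.0216 and 0.0264 at 2000 bases. A value of 0 then allows up to about 0.0647 and 0.0791 (3 reads, counting error only).

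Protein-coding transcripts covered a wide range. The mean signal of the libraries was at least 1 for 10620 genes, which is 48.7% of all, at least 10 for 5602 genes (25.7%), at least 100 for 1385 genes (6.36%) and at least 1000 for 138 genes (0.633%). The median over all protein-coding genes was 0.879. At the other end, 3775 genes (17.3%) were listed at 0 in both libraries, and 2067 more were listed at 0 in only 1 library. A listed 0 is not proof of absence, since genes with wide use, such as the tubulin gene Tuba1a, were also listed at 0.

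A small number of genes held most of the signal. The 10 most abundant genes held 11.7% and 10.1% of the protein-coding signal, the 100 most abundant 41.5% and 39.6%, and the 1000 most abundant 77.3% and 76.3%. Summed over both libraries, 188 genes were enough for 50% of the signal and 2506 for 90%. The 138 genes at 1000 or more alone held 46.3% and 44.4%. Genes below 1 made up a large share of the annotation, 7390 genes above 0, and held 0.192% and 0.202%.

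**Figure D1:**
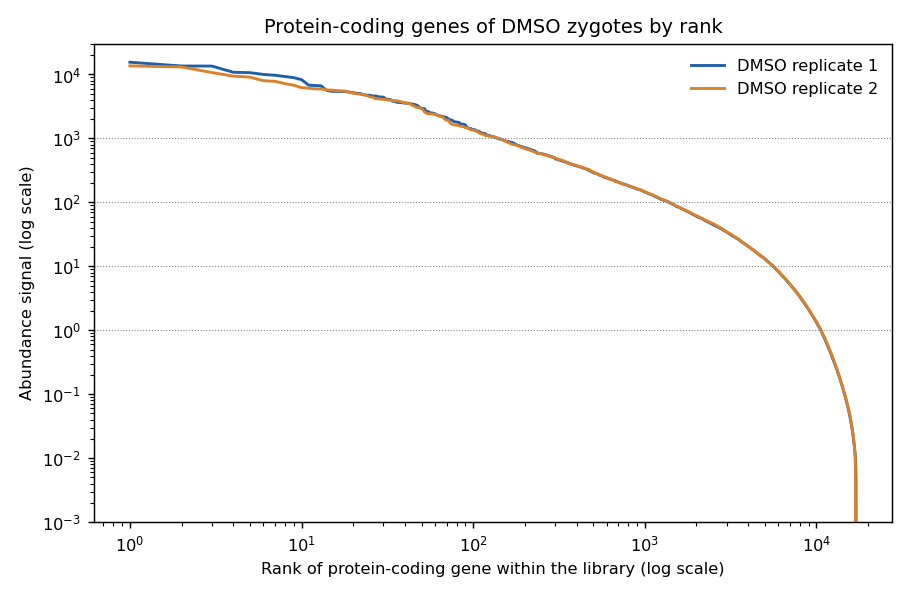
Abundance signal (log scale) of each protein-coding gene against its rank within its own library (log scale), 1 line per DMSO library, with dotted lines at 1, 10, 100 and 1000. The 2 lines lie on each other except among the highest ranks, where replicate 1 is higher, and fall steeply past the 10620 genes whose mean reached 1.

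The libraries gave close values for all but the lowest genes. Of the 1385 genes whose mean reached 100, 1181 (85.3%) had libraries within 1.2-fold of each other and all had them within 2-fold. The SD of the log2 value per library was 0.17 for genes at 1000 or more, 0.14 from 100 to 1000, 0.20 from 10 to 100, 0.52 from 1 to 10 and 1.04 for genes between 0 and 1. Of the genes between 0 and 1 that were above 0 in both libraries, 62.5% lay within 2-fold. Single values below 1 are thus imprecise, and lists are described below by how many members passed 1.

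The 13 genes of the mitochondrial genome were the exception. Their sum was 60681 in replicate 1 and 36596 in replicate 2, or 6.53% and 4.06% of the signal, and all 13 were lower in replicate 2, with a median log2 difference of -0.72. The median over 1372 nuclear genes at 100 or more was 0.00. The cause of this difference was not tested. The nuclear genes that differed most in the same direction were Cfl1 for the actin-severing protein cofilin (517 and 264), H1foo for the oocyte linker histone (1036 and 560), Pabpn1l (169 and 96.1) and Dazl, an RNA-binding translational regulator of germ cells (933 and 533). Higher in replicate 2 were Tceal8 (248 and 472), Nlrp14 (356 and 675), the Polycomb gene Pcgf2 (117 and 205), Zfp982 (288 and 477) and Dppa5a (86.5 and 143). These genes were picked for a large difference, and 1 difference between 2 libraries does not measure the error of a gene.

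**Figure D2:**
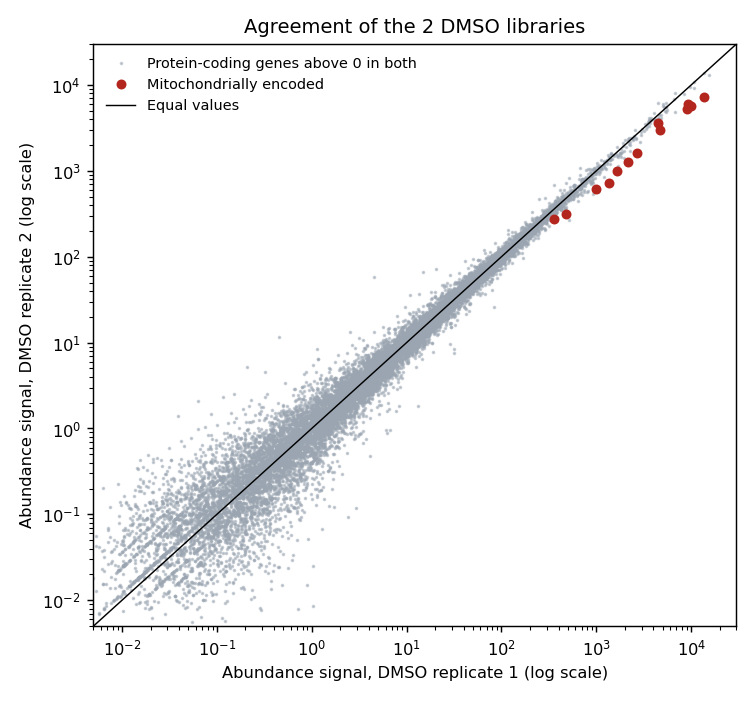
Each grey point is a protein-coding gene above 0 in both DMSO libraries, with its signal in replicate 1 on the x axis and in replicate 2 on the y axis (both log scale); red points are the 13 mitochondrially encoded genes and the line marks equal values. Points close in on the line from low to high signal, and all 13 red points lie below it.

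The 10 highest means belonged to genes known from oocytes, to genes of general function and to 3 mitochondrial genes. Omt2b (ENSMUSG00000038750, chr9:78327589-78329620 in mm10), named for oocyte maturation, stood at 15562 and 13099, a mean of 14330 ± 1741 (SD, n = 2). Dppa3 (ENSMUSG00000046323, chr6:122626410-122630272), which protects the maternal genome from DNA demethylation in the zygote, stood at 13565 and 13631 (13598 ± 46.7). Omt2b was the highest gene of replicate 1 and Dppa3 that of replicate 2, so their order is not settled by these libraries. Pttg1 (ENSMUSG00000020415, chr11:43420250-43426251) encodes securin, which holds back separase until anaphase, and stood at 10836 and 10724. The mitochondrial gene mt-Atp6, for a subunit of ATP synthase, had the next mean, from values of 13546 and 7204. Omt2a (ENSMUSG00000066463, chr9:78311972-78314796) is its relative on the same stretch of chromosome 9 and stood at 10678 and 9100, lower than Omt2b in both libraries by 1.46-fold and 1.44-fold.

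The 40 highest genes also held ones that act in many cell types. Mphosph6, a cofactor of the nuclear RNA exosome, stood at 9722 and 9422. Zfp131, a zinc finger transcription factor, stood at 8303 and 7816, and alone made up 43.8% and 42.8% of the summed signal of 394 genes with a Zfp symbol. Hddc3, an NADPH phosphatase, stood at 6725 and 4834, a wide gap for its level. Map4, a microtubule-binding protein, stood at 5626 and 5074, and Gtpbp4, a GTPase of ribosome assembly, at 5457 and 4900. These genes stood in the same range as the oocyte factors described next.

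Of the 40 genes with the highest mean, 37 were among the 40 highest of both libraries, and those 40 held 27.3% and 25.7% of the signal. Beyond the genes above, they included Cks2, which binds cyclin-dependent kinases (5304 and 4997), and Slbp, which binds the stem-loop of histone mRNA (4613 and 4465). Elobl, a relative of elongin B, stood at 4425 and 6102. Hpf1, the partner of PARP1 in serine ADP-ribosylation, stood at 4053 and 3921, Sub1, a transcription coactivator, at 3805 and 3959, Brms1l, of a histone deacetylase complex, at 4608 and 3965, and Cox14, an assembly factor of cytochrome oxidase, at 4819 and 4127. E330034G19Rik, at 5212 and 5558, and E330021D16Rik, at 3814 and 4159, have no established name. Rfpl4, an oocyte RING finger gene, stood at 3669 and 3874.

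**Figure D3:**
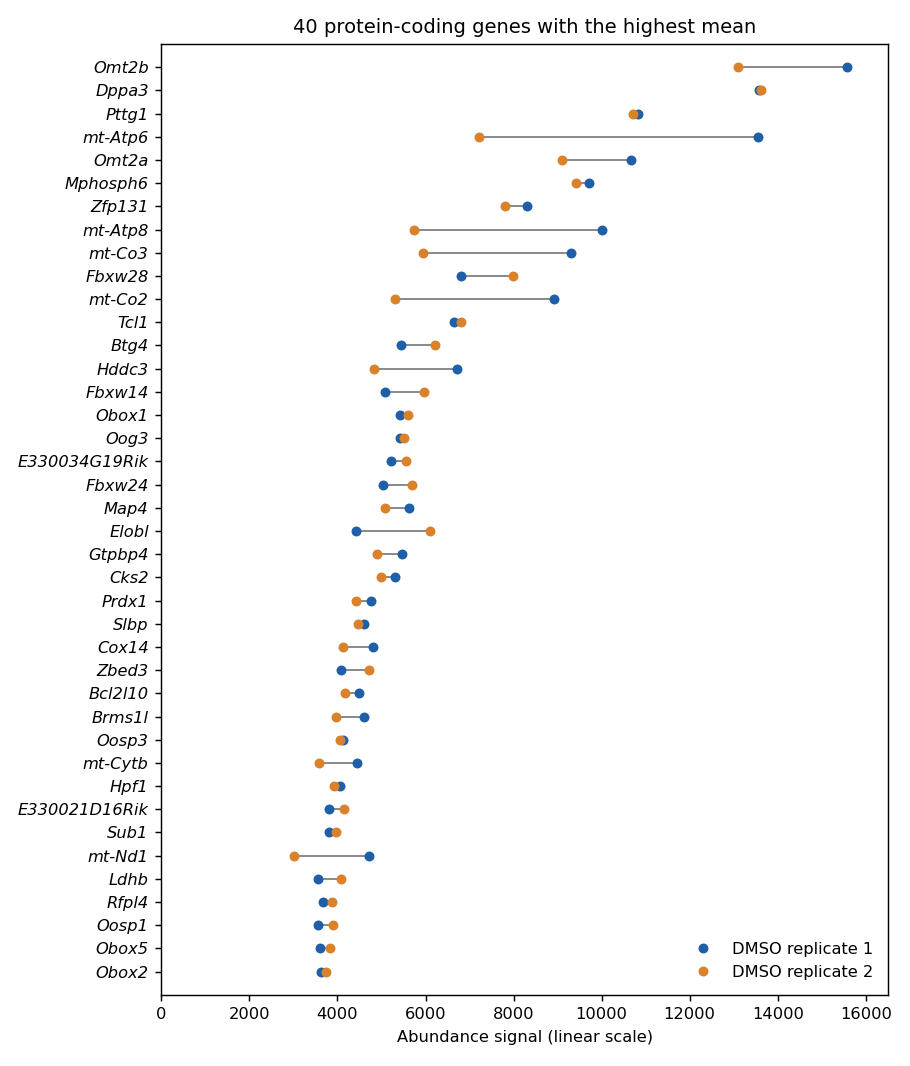
The 40 protein-coding genes with the highest mean, in order, with the signal of each DMSO library as a point (linear x axis from 0) and a line joining the 2. Most pairs nearly touch, while the mitochondrial genes mt-Atp6 (13546 and 7204), mt-Atp8, mt-Co3, mt-Co2 and mt-Nd1 are spread widely.

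Several gene families that are known for their oocyte expression were among the highest groups, though not all. Of 12 Pramel and Pramef genes 5 passed 1, with a median of 0.717 and Pramef12 highest (92.5 and 94.5). All 9 genes of the Omt2 and Tcl1 list passed 1, with a median of 1610, and together held 4.29% and 4.01% of the signal. Tcl1, a coactivator of the kinase AKT, stood at 6646 and 6802 and its relative Tcl1b1 at 3299 and 3496. Lower levels were those of Tcl1b2 (1675 and 1546), Tcl1b3 (1045 and 1105), Tcl1b4 (773 and 794) and Tcl1b5 (188 and 160), each below the one before it in both libraries. Mtcp1, the family member outside this cluster, stood at 2.00 and 2.54.

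F-box proteins with WD40 repeats, which select targets for SCF ubiquitin ligases, formed the family with the most members of these. Of 23 Fbxw genes 21 passed 1 and 14 passed 100, with a sum of 22676 and 26674, or 2.44% and 2.96% of the signal. Fbxw28 stood at 6807 and 7987, Fbxw14 at 5087 and 5957, and Fbxw24 at 5040 and 5693. All 3 were higher in replicate 2. Of the 36 Fbxo genes, F-box genes with other or no such repeats, 22 passed 1 and 4 passed 100, with a sum of 0.142% and 0.144% of the signal and Fbxo8 highest (348 and 347).

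The oocyte homeobox genes stood at very unequal levels. Obox1 stood at 5421 and 5608, Obox5 at 3613 and 3822, Obox2 at 3627 and 3749, and Obox7 at 531 and 602. Obox3 (2.50 and 2.52) and Obox6 (0.193 and 0.0392) were far lower, and the 7 members together held 1.42% and 1.53%. The 4 Oog genes, of a leucine-rich repeat family, ran from Oog3 (5415 and 5500) through Oog1 (3451 and 3253) and Oog4 (1060 and 1065) to Oog2 (882 and 863). Oog1 and Obox2 share nearly their whole sequence with another gene, as described below, so their own levels are uncertain.

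All 8 members of the subcortical maternal complex list, proteins that assemble under the egg membrane and are needed for the first cleavages, passed 1, with a median of 134. Zbed3 stood highest (4083 and 4715), then Nlrp4f (1781 and 1615) and Ooep (1322 and 1548). The core members Nlrp5 (136 and 151), Padi6 (106 and 144) and Tle6 (87.2 and 111) were lower than Ooep, and Khdc3 (31.2 and 36.5) and Nlrp2 (18.7 and 23.8) were lower again. Members of the same complex thus had mRNA levels that spanned more than 100-fold. Of 17 Nlrp genes 11 passed 1, and the highest after Nlrp4f was Nlrp9c (1207 and 1291).

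The list of secreted oocyte factors also had all 10 members above 1, with a median of 166. The oocyte-secreted proteins Oosp3 (4130 and 4061), Oosp1 (3560 and 3902) and Oosp2 (771 and 1021) led. Bmp15, a growth factor that acts on granulosa cells, stood at 1368 and 1441, and its partner Gdf9 at 275 and 308. The remaining members were Fgf8 (37.6 and 42.9), Fgf10 (23.1 and 24.0), Bmp6 (9.81 and 8.96), Kitl (2.48 and 3.70) and Pdgfa (1.01 and 1.86). Kitl is better known as a factor of granulosa cells, so the 10 are not all oocyte factors. Zona pellucida genes, which build the egg coat during oocyte growth, were lower: Zp2 stood at 62.5 and 62.8, Zp3 at 56.7 and 67.1 and Zp1 at 18.4 and 17.4. The genes for the sperm receptor Juno, Izumo1r (149 and 150), and for the membrane fusion protein CD9, Cd9 (324 and 345), were higher than the zona genes. Astl, which cleaves the zona after fertilisation, stood at 14.6 and 13.5, Ptprk at 1.23 and 0.854, Mfge8 at 0.515 and 0.117, Pate1 at 0.549 and 0.0622 and Cd81 at 0.176 and 0.426.

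Oocyte transcription factors were lower as a list, with 15 of 17 above 1 and a median of 14.9. Zbed3, which this list shares, and Zfp57 (1107 and 1085) were the only members above 1000. The regulators of oocyte growth Nobox (95.9 and 103), Lhx8 (52.6 and 55.8) and Figla (6.02 and 5.79) differed widely in level, and Sohlh2 stood at 4.13 and 3.13 and Sohlh1 at 0.101 and 0.0819. Sebox (69.7 and 77.3), the pioneer subunit Nfya (74.6 and 62.6) and the oocyte TATA factor Tbpl2 (50.6 and 48.4) were in between, as were Hsf1 (29.7 and 30.05), Foxo3 (16.7 and 13.0), Stat3 (12.4 and 14.1) and Bnc1 (10.4 and 10.4). The lowest remaining members were Taf4b (4.41 and 4.86), Hsf2 (1.64 and 1.94) and Taf7l (0.315 and 0).

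The machinery that removes maternal mRNA was well represented, with 34 of 36 listed genes above 1 and a median of 17.6, against 48.7% and 0.879 over all protein-coding genes. Btg4, which brings the deadenylase complex CCR4-NOT to maternal mRNA, stood at 5437 and 6222. The deadenylase subunits Cnot7 (1016 and 1126) and Cnot6l (882 and 726) followed. Their close relatives were lower, Cnot8 at 50.6 and 56.0 and Cnot6 at 22.2 and 15.6, so that Cnot7 stood 20.1-fold above Cnot8 in both libraries and Cnot6l 39.7-fold and 46.4-fold above Cnot6. Cnot3, a structural subunit, stood at 221 and 210. The only member below 1 in both libraries was the decapping gene Edc3 (0.111 and 0.0276).

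Genes that store mRNA and control its translation passed 1 in 31 of 35 cases, with a median of 34.7. The cap-binding protein gene Eif4e stood at 966 and 930, 6.07 and 5.94 times its oocyte form Eif4e1b (159 and 156). Dazl came next, at 933 and 533, and then, of the genes with these roles, Lsm14a, a component of RNA granules (261 and 229). The secreted factor Gdf9 (275 and 308) is also counted among the 35, although it has neither role. Among poly(A)-binding proteins, the embryonic form Pabpc1l stood at 36.6 and 35.8 and the somatic form Pabpc1 at 1.02 and 5.47. Below 1 in both libraries were Cpeb2, Larp1, Igf2bp1 and Msi1. Of 77 genes for cytosolic ribosomal proteins 73 passed 1 but only 10 passed 100, and their sum was 0.420% and 0.466% of the signal, less than that of Omt2a alone. Rplp2 was highest of them, at 362 and 365. Records typed as pseudogenes were not counted here, and 1 of them, Rpl37rt, stood at 1144 and 1066. The part of such records in the low sum was not tested.

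Cell cycle genes passed 1 in 50 of 55 cases, with a median of 23.6 and 2.04% and 2.10% of the signal, more than 50% of it securin. Cyclin B1, the partner of CDK1 in entry into mitosis, stood at 1925 and 2119 (Ccnb1), survivin at 1631 and 1566 (Birc5), and the spindle checkpoint gene Mad2l1 at 1149 and 1059. Several pairs of relatives were dominated by the same member in both libraries. The kinase gene Wee2, an oocyte inhibitor of CDK1, stood at 221 and 212 against 3.50 and 2.90 for Wee1, a ratio of 63.3 and 73.0. Cyclin A2 exceeded cyclin A1 by 593-fold and 520-fold (Ccna2 138 and 129, Ccna1 0.232 and 0.248), and Ccne2 exceeded Ccne1 by 84.1-fold and 74.9-fold. Aurkc, the germ cell Aurora kinase, stood at 80.2 and 80.7, above Aurkb at 9.64 and 8.01. The D cyclin genes Ccnd1 (0.178 and 0.199) and Ccnd2 (0.0456 and 0.0159), which act in the G1 phase of somatic cells, were below 1, whereas the third D cyclin, Ccnd3, stood at 6.04 and 5.22. Also below 1 were Spdya (0.285 and 0.522) and Rec8 (0.058 and 0), the cohesin subunit of meiosis.

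Ubiquitin genes were high as a group. All 31 passed 1, with a median of 114. The SCF subunit Skp1a stood at 3657 and 3589, the conjugating enzyme gene Ube2d3 at 3188 and 2922, the RING subunit Rbx1 at 1816 and 1775 and the hydrolase gene Uchl1 at 1170 and 1177. The SCF scaffold Cul1 stood at 1068 and 1105, so that each constant subunit of the ligase exceeded 1000. Of 40 proteasome genes 36 passed 1 and none passed 1000, with Psmb2 (824 and 922) and Psma7 (775 and 843) highest.

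Chromatin genes were marked by histone variants and their chaperones. Of 26 listed, 25 passed 1, with a median of 108. The genes for the replacement variant of histone H3 led, H3f3b at 2497 and 2524 and H3f3a at 1434 and 1618. The nucleoplasmin family members Npm1 (1427 and 1360) and Npm2 (879 and 937) followed. Canonical histone genes, whose mRNA ends in a stem-loop and not in a poly(A) tail, gave low values in these poly(A)-primed libraries. Of 67 genes 27 passed 1 (40.3%, beside 48.7% of all genes) and none passed 100. The highest was Hist2h2aa1 at 93.3 and 101. Such libraries do not measure how much mRNA without a tail the zygote held. Hira, which deposits the H3 variant, stood at 1.26 and 0.727.

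Of 40 histone methylation enzymes 35 passed 1, with a median of 11. The H3K4 demethylase gene Kdm5a stood at 947 and 964, and its relative Kdm5b at 1.86 and 2.33. The core Polycomb genes Eed (579 and 555), Ezh2 (590 and 540) and Suz12 (141 and 137) were the next highest. Ezh2 exceeded Ezh1 by 30.7-fold and 31.6-fold, and Ehmt1 (35.0 and 34.0) exceeded its partner in H3K9 methylation Ehmt2 (1.70 and 1.43) by 20.6-fold and 23.7-fold. Below 1 in both libraries were Kdm4b, Kdm4c, Kdm4d and Kmt2a.

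For DNA methylation, 16 of 19 listed genes passed 1. After Dppa3, the imprint protector Zfp57 stood at 1107 and 1085, the maintenance methyltransferase gene Dnmt1 at 120 and 149, and its recruiter Uhrf1 at 62.6 and 57.6. Of the oxidising enzymes, Tet3, the form that acts in the zygote, stood at 45.9 and 47.4 and Tet1 at 6.95 and 7.31. Stpg4 (0 and 0.282), the glycosylase gene Tdg (0.0276 and 0.0726) and the rodent methyltransferase gene Dnmt3c (0.166 and 0.115) were below 1. Of 37 DNA repair genes 34 passed 1, led by the checkpoint kinase gene Chek1 at 1202 and 1216, Pcna at 208 and 191 and the mismatch gene Msh6 at 97.1 and 91.1.

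Energy genes were uneven. In the glycolysis list 17 of 29 passed 1 with a median of 1.81, near the 0.879 of all genes, and Ldhb alone, at 3553 and 4082, supplied nearly all of the list's sum of 3722 and 4255. Its relative Ldha, the form that favours lactate production, stood at 3.48 and 1.38. Pkm (33.8 and 42.6), Gapdh (22.9 and 26.2) and Aldoa (24.6 and 23.2) came next, Hk1 was below 1, and Hk3, Pgam2, Eno2 and Pklr were listed at 0. Pyruvate use and the TCA cycle had a median of 35.4, with 30 of 32 above 1, and the mitochondrial pyruvate carrier gene Mpc1 was highest (331 and 340). Zygotes are known to live on pyruvate and lactate and to use little glucose.

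The pathway that the series set out to block had a share of genes above 1 near that of all genes. Of 20 serine and glycine genes 11 passed 1, or 55% beside 48.7%, with a median of 2.14 beside 0.879, and Dld (75.3 and 114), a subunit shared with other enzyme complexes, was highest. Slc25a32, a mitochondrial folate carrier, stood at 31.8 and 24.5, the glycine transporter gene Slc6a9 at 17.5 and 14.7, and Shmt2, the mitochondrial serine hydroxymethyltransferase, at 13.3 and 13.1. Of the 3 enzymes that make serine from a glycolysis intermediate, Phgdh stood at 4.34 and 5.95, Psph at 4.78 and 6.03 and Psat1 at 0.0962 and 0.0665. Below 1 were also Sfxn1, Cbs, Sds, Amt and Gnmt, and the neutral amino acid carriers Slc1a4 and Slc1a5 and the gene Sdsl were listed at 0. In the folate and SAM list 17 of 25 passed 1, and Mat2b, the regulatory subunit of the enzyme that makes SAM, stood at 1516 and 1528, or 32.6-fold and 33.6-fold above the catalytic Mat2a (46.5 and 45.5). Ahcy, which hydrolyses the product of methylation, stood at 0.258 and 0.198.

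Redox, chaperone and survival genes had single dominant members. Prdx1, a peroxidase, stood at 4756 and 4417 and Prdx2 at 1772 and 1615, then Sod1 at 199 and 195, whereas catalase (Cat) stood at 0.241 and 0.157. Gss, Keap1, Hmox1 and Txnrd2 were also below 1, and Gstm2 was listed at 0. Hsp90aa1 stood at 2532 and 3006, 15.7-fold and 16.4-fold above Hsp90ab1 (161 and 183), while the heat-inducible Hspa1a (0.166 and 0.0674) and Hspa1b (0.583 and 0.196) were below 1. Bcl2l10, a BCL2 relative of the ovary, stood at 4490 and 4177, the survival gene Bcl2l1 at 23.7 and 20.2, and the survival genes Mcl1 (0.744 and 0.826) and Bcl2 (0.306 and 0.208) below 1. The members of these pairs, and of those above, were set side by side with their levels in these libraries already known.

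In the list of 2-cell and minor activation genes, 17 of 34 passed 1, a share of 50% beside 48.7% for all genes. The list counts Obox genes, described above as oocyte homeobox genes. Obox1, Obox5, Obox2, Obox7 and Obox3 are among the 17, and the first 4 of these led the list and held most of its signal. The share is therefore not one of later-embryo genes alone, and the share without Obox genes was not counted. Outside the Obox genes, Arg2 stood at 321 and 329, Sp110 at 192 and 188 and Tcstv1 at 138 and 193. Dppa2 stood at 58.2 and 56.8 and Tcstv3 at 27.6 and 35.4. Lower levels were those of Zscan4d (7.41 and 10.9), Zscan4c (1.44 and 2.15), Duxf3 (1.30 and 2.41) and Zfp352 (1.38 and 1.80). All 5 Tdpoz genes were below 1. For pluripotency, 11 of 24 passed 1. Klf17 (182 and 149) was highest, then Dppa5a, Pou5f1 (40.1 and 39.4) and Esrrb (32.4 and 35.7). Sox2 (0.288 and 0.1) and Klf4 (0.814 and 0.674) were below 1, and Myc and Fgf4 were listed at 0.

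Genes of the first lineages passed 1 in 8 of 27 cases, with a median of 0.0893. Hhex (54.6 and 62.3), Yap1 (37.3 and 35.0), Gata3 (16.4 and 22.2) and Id2 (10.8 and 11) were the highest. The trophectoderm gene Cdx2 (0.0373 and 0) and the endoderm gene Sox17 (0.0284 and 0.15) were below 1. Tead4, Hand1, Krt19, T, Foxa2 and Lefty1 were listed at 0. Of 39 Hox genes only Hoxa7 (43.3 and 45.1) passed 1, and none of the 19 Wnt ligand genes did, 11 of them listed at 0.

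Marker genes of cells that could accompany zygotes passed 1 less often than all protein-coding genes, of which 48.7% passed. The shares were 8.33% for cumulus and granulosa genes, 31.6% for sperm genes, 5% for blood cell genes and 25% for oviduct genes. Of 24 cumulus and granulosa genes 2 passed 1 and 8 were listed at 0, among them Amh, Inha, Foxl2 and Ptx3. The 2 were Serpine2, a protease inhibitor (524 and 496), and the aromatase gene Cyp19a1 (8.14 and 12.3), and the sum of the list was 535 and 510, nearly all of it Serpine2. The part of cumulus cells in these values was not tested. Fshr stood at 0.0892 and 0.131 and Lhcgr at 0.321 and 0.581. Of 19 sperm genes 6 passed 1, led by Odf2 (28.3 and 27.3), a gene also used in centrosomes, and the protamine gene Prm2 (12.3 and 12.3), while Prm1, Tnp1, Tnp2 and Smcp were listed at 0. Of 20 blood cell genes 1, Cd68 (1.45 and 1.15), passed 1, and the globins Hba-a1, Hbb-bs and Hbb-bt were listed at 0. Of 12 oviduct genes 3 passed 1, the highest being Krt7 (2.19 and 2.05).

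Genes of other tissues and large receptor families were mostly low. Over 1965 such genes, of which 1135 were olfactory receptor genes, 195 (9.92%) passed 1, against 48.7% of all protein-coding genes, and 799 (40.7%) were listed at 0. Among the olfactory receptor genes 88 passed 1 and 472 were listed at 0, and among 210 type 1 and 120 type 2 vomeronasal receptor genes 20 and 14 passed. None of the 38 taste receptor genes and none of the 13 interferon alpha genes did. Keratin-associated proteins passed in 1 of 57 cases, Krtap4-6 (1.26 and 3.42), and Rhox genes in 2 of 34. Other families that are used mainly in differentiated tissues were not pooled into the 1965, and their shares varied. Protocadherins passed in 2 of 57 cases and Wnt ligand genes in 0 of 19, whereas the following families had higher shares. Cytochromes P450 passed in 25 of 99 cases, potassium channels in 18 of 94, claudins in 9 of 32 and axonemal dyneins, the motors of cilia, in 11 of 15. Among them Dnah7c stood at 418 and 455, although its longest transcript was 100% covered by Dnah7b, and the channel genes Kcnk4 at 147 and 148 and Kcnn2 at 127 and 119.

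A few genes of this kind stood well above the rest. Olfr624 stood at 817 and 590, Olfr1173 at 191 and 143 and Olfr639 at 116 and 84.5. Outside the receptors were Cpa1, a pancreatic carboxypeptidase gene (85.8 and 95.3), the cytokine genes Il7 (92.8 and 78.8) and Il17f (66.5 and 111), and Krt12, a keratin of the cornea (51.2 and 49.3). Syt1, a sensor of synaptic vesicle release, stood at 34.8 and 39.0 and Tnni3, a heart troponin gene, at 35.0 and 33.3. Of the 38 genes among the 1965 that stood at 10 or more, 5 had a near-identical copy over most of their transcript. Stretches of Olfr624 were also shared: they covered 30.3% of the longest transcript of Hexdc (2921 and 2179), a hexosaminidase gene picked out after its values were seen. The part of shared sequence in these levels was not tested.

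Sharing was also found among the highest genes. The search covered genes at 100 or more and chosen lower genes, so it gives no share over all protein-coding genes. A near-identical copy, defined as at least 95% identity over at least 50% of the longest transcript, existed for 9 of the 40 highest genes (22.5%), for 32 of the 138 at 1000 or more (23.2%) and for 127 of the 1385 at 100 or more (9.17%). Obox1 covered 100% of Obox2, Fbxw14 covered 96.8% of Fbxw28, and a predicted gene covered 100% of Oog1. For Ldhb 76.8% was covered by a processed pseudogene, and for mt-Atp6 99.6% by a nuclear pseudogene. Omt2a covered only 18.8% of Omt2b, and Pttg1 had no stretch of this identity in another gene. Copies of this kind also existed for genes named above as low or at 0: Ahcy (81.9% covered), Tdg (84.8%), Hira (66.0%), Ldha (55%), Hspa1a (74.1%), Hspa1b (78.5%), Obox6 (77.5%), Hba-a1 (77.0%), Zscan4c and Zscan4d (100% by each other) and Tuba1a (75.3%). Levels within such groups depend on how the authors' quantification shared reads out.

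A small share of the abundant genes lay in runs of neighbours, and how many such runs other genes form was not counted. Runs of at least 3 adjacent protein-coding genes that all stood at 100 or more numbered 20, and held 73 of 1372 such nuclear genes (5.32%). The longest, on chr9:109217432-109790670, was made of 12 Fbxw genes and held 2.39% and 2.90% of the signal. The next, on chr12:105032688-105222793, held Glrx5 and 6 Tcl1 genes, with 1.48% and 1.56%. The other 18 were runs of 3. Among them were Obox7, Obox2 and Obox1 on chr7:14659496-15556866 (1.03% and 1.11%), and Oosp2, Oosp1 and Oosp3 on chr19:11647279-11711874 (0.911% and 0.997%). Many runs of 3 joined genes without a shared family name, such as Prc1, Unc45a and Hddc3, or Nasp, Akr1a1 and Prdx1. Omt2b and the Fbxw run both lie on chromosome 9, which held 10.7% and 10.9% of the signal from 1190 genes, the highest share of any nuclear chromosome. The X chromosome held 2.00% and 2.10% from 920 genes. On the Y chromosome 5 of 172 genes passed 1 and 131 were listed at 0.

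Coding length and exon number differed between classes of signal. The longest annotated coding sequence had a median of 259 codons for genes at 1000 or more, 323 from 100 to 1000, 441 from 10 to 100 and 484 from 1 to 10. The median number of exons was 4, 6, 8 and 8 in the same order. Genes listed at 0 had a median of 310 codons and 3 exons, and 17.5% of them had a single exon, against 5.34% of those from 1 to 10 and 13.0% of those at 1000 or more. The last share rests on the mitochondrial genes, which have no introns: without them it was 6.25%, 8 of 128 genes. The signal itself appears to be divided by transcript length, so length is not taken as independent of it.

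Promoters of the highest genes differed widely in CpG content. The following windows are the 120 bases before the RefSeq start (GRCm38.p6), read 5′ to 3′ on the gene's strand, with each CG in capitals. They are shown as examples of the range of CpG content among the 40 highest genes. The start used in oocytes and zygotes is not known from the table, and the RefSeq start is not always that of M21. For Omt2b, Btg4, Obox1 and Map4 the window lies inside the M21 gene, and for Oog3 and Prdx1 it overlaps the M21 start. The first 5 belong to oocyte genes among the 40 highest: Omt2b on chr9:78327910-78328029 (+), Fbxw28 on chr9:109339660-109339779 (-), Btg4 on chr9:51115881-51116000 (+), Obox1 on chr7:15547137-15547256 (+) and Oog3 on chr4:144162652-144162771 (-).
Omt2b: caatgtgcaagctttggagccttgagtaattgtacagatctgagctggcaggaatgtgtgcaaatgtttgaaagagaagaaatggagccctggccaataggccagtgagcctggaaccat
Fbxw28: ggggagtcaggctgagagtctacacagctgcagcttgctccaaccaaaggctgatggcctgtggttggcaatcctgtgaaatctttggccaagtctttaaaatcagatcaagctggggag
Btg4: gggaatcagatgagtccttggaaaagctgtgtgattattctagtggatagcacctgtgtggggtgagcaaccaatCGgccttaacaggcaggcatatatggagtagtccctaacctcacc
Obox1: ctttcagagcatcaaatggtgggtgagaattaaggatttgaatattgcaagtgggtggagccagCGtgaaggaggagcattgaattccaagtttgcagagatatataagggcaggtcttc
Oog3: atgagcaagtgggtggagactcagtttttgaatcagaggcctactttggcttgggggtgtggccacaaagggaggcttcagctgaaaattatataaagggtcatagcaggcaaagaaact
The other 4 belong to genes of general cell function among the same 40: Mphosph6 on chr8:117801975-117802094 (-), Map4 on chr9:109931654-109931773 (+), Slbp on chr5:33652575-33652694 (-) and Prdx1 on chr4:116685479-116685598 (+).
Mphosph6: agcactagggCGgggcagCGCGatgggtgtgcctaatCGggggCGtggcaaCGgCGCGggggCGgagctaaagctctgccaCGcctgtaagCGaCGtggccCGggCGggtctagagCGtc
Map4: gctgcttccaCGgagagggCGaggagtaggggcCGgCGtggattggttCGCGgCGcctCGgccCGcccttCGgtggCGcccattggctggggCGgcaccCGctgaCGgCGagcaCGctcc
Slbp: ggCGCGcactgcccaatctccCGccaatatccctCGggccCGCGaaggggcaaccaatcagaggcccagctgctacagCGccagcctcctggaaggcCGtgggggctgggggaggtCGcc
Prdx1: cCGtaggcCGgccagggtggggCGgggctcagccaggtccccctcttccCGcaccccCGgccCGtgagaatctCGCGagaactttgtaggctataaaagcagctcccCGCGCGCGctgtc
The 5 oocyte windows held 0 or 1 CG each, and the other 4 held 15, 16, 9 and 12. These genes were chosen for display after their windows had been counted, and they do not show that oocyte genes as a group lack CG. Tcl1, an oocyte gene among the same 40, had 11 CG in its window of 300 bases, where Omt2b had 1 and Mphosph6 had 33.

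Over windows of 300 bases, which run from 250 bases before to 50 after the start, 16475 of 21760 symbols could be matched. The median number of CG was 14 over all genes, 3 for genes listed at 0, 8 for those up to 1, 19 from 1 to 10, 21.5 from 10 to 100 and 22 from 100 to 1000. It was 18.5 for the 100 genes at 1000 or more that had a window, and 5 for the 31 of the 40 highest genes that had one. Windows with at most 3 CG made up 54.0% of genes listed at 0, 5.74% of those from 10 to 100, 25% of those at 1000 or more and 45.2% of the 40 highest. The share was thus lowest between 10 and 1000 and was higher among the most abundant genes. In the subcortical maternal complex list 62.5% of 8 windows held at most 3 CG, and in the Omt2 and Tcl1 list 44.4% of 9. Other oocyte lists had fewer such windows, 14.3% of 7 for the secreted factors and 6.67% of 15 for the transcription factors. Among 14 housekeeping windows and 43 cell cycle windows the shares were 0% and 2.33%. The lists of oocyte genes thus differed among themselves in this share.

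**Figure D4:**
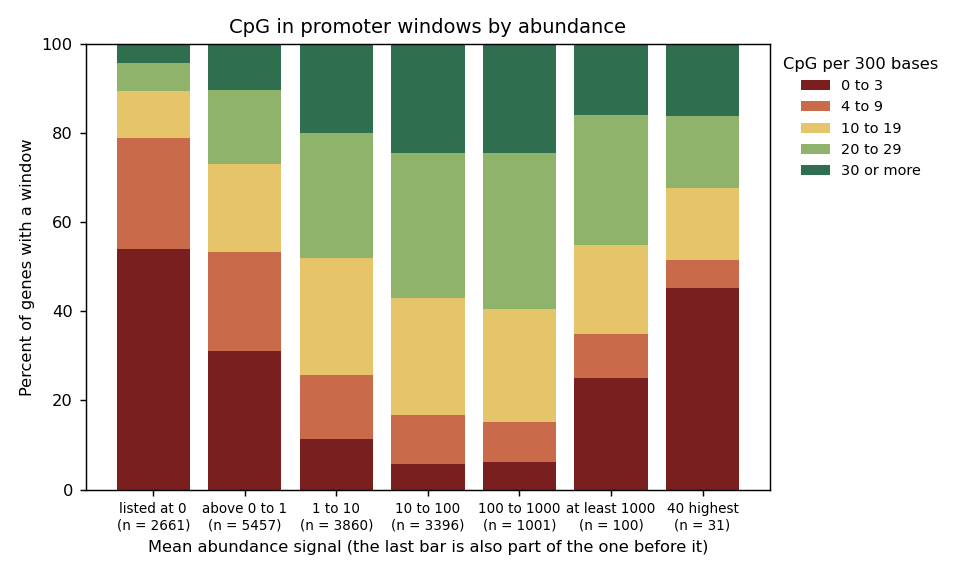
Share of genes (y axis, percent) by number of CG dinucleotides in the 300-base RefSeq promoter window (colours), for classes of mean signal from listed at 0 to at least 1000 and for the 40 highest genes, which are also part of the bar before. The darkest part, 0 to 3 CG, shrinks from 54.0% to 6.09% at 100 to 1000 and grows to 45.2% in the 40 highest.

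The letters TATAAA, counted on either strand anywhere in the 300 bases, were found in 12.9% of all windows, in 24.3% of those of genes listed at 0, in 6.80% of those from 10 to 100 and in 8% of those at 1000 or more. A match of these letters is a description of the window and not a site in use.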

How the data were processed

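RNA from 2 libraries of DMSO-treated 1-cell embryos was analysed. The authors deposited 1 table with 1 abundance signal per gene and library; fastp, kallisto, DESeq2 and mm10 appear in the submitters' processing notes, and their versions, roles and settings are not given in the sources used here. The signal resembles the length-divided abundance that kallisto writes, scaled once more. The columns of the other 4 libraries were not used. Values were used as deposited, averaged over the libraries and joined by Ensembl identifier to GENCODE M21 types: 21785 protein-coding genes, 13489 pseudogenes, 546 other records and 245 not found in M21. Nothing was tested, since there was 1 group.

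The 38 gene lists, symbol families, pairs and thresholds were chosen with earlier results of these data known, and some family patterns were corrected after their members had been seen. Genes named were drawn from the 40 highest, the 4 highest of a list with its members below 1, all members of the oocyte lists, the 3 highest of a family, and the 5 in each direction that differed most between the libraries at a mean of at least 100. Not all of these are printed. Others, among them the second members of pairs, were chosen after their values were seen.

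Read steps were sought over a range of less than a doubling, after testing on simulated data, so the read values are approximate. Copies were searched among M21 transcripts with blastn 2.17.0. Promoter windows came from RefSeq (GRCm38.p6) and matched 16475 of 21760 symbols. Python 3.11.15, pandas 2.3.3, numpy 2.4.6 and matplotlib 3.10.9 were used. Alternatives were each library alone, rescaling, all records, and no mitochondrial genes.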

Additional observations from a re-analysis of the deposited data

How the results depend on the processing

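Each library alone gave 10610 to 10623 genes at 1 or more, 5598 to 5605 at 10, 1388 to 1389 at 100 and 4748 to 4869 listed at 0. The share held by the 10, 100 and 1000 highest genes was then 10.2% to 11.9%, 39.6% to 41.5% and 76.3% to 77.3%. The number of genes listed at 0 was 3775 in both libraries, 13396 with all records of the table, and 6397 when values below 0.1 were counted as 0. Without mitochondrial genes the 100 highest held 38.9% and the 1000 highest 75.7%, against 40.5% and 76.8%. With all records the 1000 highest held 75.8%. Rescaling each library to the same sum of protein-coding genes, or asking both libraries to pass, gave 10818 and 10212 genes at 1 or more. The other counts and shares named here stayed within 1.5 times, or within the spread between the libraries, under these alternatives. Lists, families, pairs, runs, promoters and gene structure were not run under them. The lone-library means of single genes were added after seeing the data. No paired analysis was possible because the results come from no test and only 1 group was used. With 2 libraries and unknown depth, values below 1 have a wide error, and levels of genes with near-identical copies are uncertain.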

Other observations

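Records that M21 does not type as protein-coding held 5.67% and 5.77% of the signal, most of it in pseudogenes with 4.59% and 4.61%. The highest was an Ensembl record without a symbol in M21, ENSMUSG00000118624, at 5958 and 6215 in replicates 1 and 2. The processed pseudogene Gm48789 stood at 5784 and 5832, within the range of the 20 highest protein-coding genes. Cct6a, a subunit of the chaperonin that folds actin and tubulin, is typed as a processed transcript in M21 and stood at 2924 and 2809. The mitochondrial-like pseudogenes Gm10925 (2222 and 1782) and Gm29216 (2215 and 1404) were lower in replicate 2, as were the mitochondrial genes themselves.

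On the Y chromosome, 2 of 172 protein-coding genes stood at 10 or more. Gm21244 stood at 1208 and 859, and its whole longest transcript was covered by the related Y gene Gm20826, which was listed at 0. Kdm5d, a histone demethylase gene, stood at 144 and 106, and 3.55% of its longest transcript was shared with Hddc3. The highest value in a gene listed at 0 in the other library was 44.4, for Gm7879 in replicate 1.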
